A study of Mus musculus with 10 samples.

Results

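The genes examined encode subunits of the Polycomb repressive complexes: *Ezh1*, *Ezh2*, *Eed*, *Suz12* and *Jarid2* of PRC2, and *Rnf2*, *Ring1*, *Bmi1*, *Pcgf1* and *Cbx2* of PRC1. The windows examined are all 5 kb windows that the deposited table assigns to these 10 genes. There are 93 among the 544879 windows of the table, of which 225692 carry a gene name. *Jarid2* had 40 of the 93 windows, *Ezh2* 14, *Suz12* 9, *Rnf2* 8, *Eed* and *Ezh1* 7 each, *Cbx2* 3, *Bmi1* and *Pcgf1* 2 each, and *Ring1* 1.

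H3K4me3, a mark of promoters, was profiled by ULI-nChIP-seq, a native ChIP-seq for few cells in which chromatin is cut with micrococcal nuclease. *Setd1b* cKO oocytes came from C57BL6 females of 21 days with both *Setd1b* alleles floxed and a *Gdf9*-Cre transgene (replicates 1, 3 and 4), and WT oocytes from floxed females labelled Cre negative (replicates 1, 2 and 4). Each library was made from a pool of about 200 germinal vesicle (GV) oocytes, and 2 input libraries were available per genotype. The *Gdf9* promoter drives Cre in oocytes from early folliculogenesis onward, so H3K4me3 laid down before that stage predates the deletion, and the methods of the study also count heterozygous Cre carriers among WT females.

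PRC2 methylates histone H3 at lysine 27, with EZH1 or EZH2 as the enzyme, SUZ12 as the scaffold and EED as the subunit that binds the finished mark. JARID2 is an accessory subunit that helps to bring PRC2 to chromatin. PRC1 ubiquitinates histone H2A through RNF2 (RING1B) or RING1, each paired with a PCGF protein such as PCGF1 or BMI1, and CBX2 is a chromodomain subunit that reads the PRC2 mark. In oocytes, Polycomb marks occupy silent, unmethylated chromatin and can pass to the embryo. SETD1B is an H3K4 methyltransferase, and oocytes carry H3K4me3 at promoters and also in broad domains outside them.

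Of the 10 genes, 8 matched an entry among the RefSeq promoters of GRCm38.p6 (250 bases before to 50 bases after the start), and *Pcgf1* and *Cbx2* did not. The promoters of 4 genes are shown because the TSS windows of *Jarid2*, *Ezh1* and *Eed* gave the largest differences in level between genotypes among the TSS windows that carry a member's name, and that of *Ezh2* almost none. Each CpG, the dinucleotide CG (the same on both strands), is in capitals.
Jarid2: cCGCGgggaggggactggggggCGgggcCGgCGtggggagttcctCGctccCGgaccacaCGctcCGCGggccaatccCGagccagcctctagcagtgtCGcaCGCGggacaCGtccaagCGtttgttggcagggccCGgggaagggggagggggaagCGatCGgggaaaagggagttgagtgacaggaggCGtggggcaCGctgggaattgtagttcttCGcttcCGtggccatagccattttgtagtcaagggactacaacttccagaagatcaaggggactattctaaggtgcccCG
Ezh1: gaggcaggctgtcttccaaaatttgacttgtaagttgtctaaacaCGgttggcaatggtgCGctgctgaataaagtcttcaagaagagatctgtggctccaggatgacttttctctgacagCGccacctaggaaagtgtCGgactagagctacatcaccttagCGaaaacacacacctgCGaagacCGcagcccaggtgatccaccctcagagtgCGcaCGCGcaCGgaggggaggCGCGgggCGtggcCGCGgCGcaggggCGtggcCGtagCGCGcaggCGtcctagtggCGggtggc
Eed: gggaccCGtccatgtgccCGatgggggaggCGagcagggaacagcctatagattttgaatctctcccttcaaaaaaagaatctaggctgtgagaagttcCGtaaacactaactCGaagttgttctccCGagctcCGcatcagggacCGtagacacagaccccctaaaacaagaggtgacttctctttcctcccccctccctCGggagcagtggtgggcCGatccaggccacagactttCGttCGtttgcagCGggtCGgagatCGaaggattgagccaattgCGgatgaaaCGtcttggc
Ezh2: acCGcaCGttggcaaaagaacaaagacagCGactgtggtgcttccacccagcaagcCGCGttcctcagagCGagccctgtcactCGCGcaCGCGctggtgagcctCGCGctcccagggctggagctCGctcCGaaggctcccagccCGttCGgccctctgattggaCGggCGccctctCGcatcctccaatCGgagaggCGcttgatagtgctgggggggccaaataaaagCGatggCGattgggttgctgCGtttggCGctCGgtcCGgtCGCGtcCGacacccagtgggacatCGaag
These stretches lie at chr13:44730524-44730823 (plus strand, *Jarid2*, the first of 2 starts), chr11:101226414-101226713 (minus strand, *Ezh1*), chr7:89980927-89981226 (minus strand, *Eed*) and chr6:47594981-47595280 (minus strand, *Ezh2*). They hold 24, 23, 17 and 31 CpGs, against a median of 7 over 32851 promoters of the same length, and 94.6% of all promoters hold at least 1. The remaining 4 genes had between 23 CpGs (*Bmi1*) and 41 CpGs (*Suz12*) in their promoters. Of all promoters, 31.4% held as many CpGs as that of *Eed* or more, and 3.46% as many as that of *Suz12* or more.

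The windows that passed the test lie in introns, 1 of them next to the *Jarid2* promoter window. Below are the central 200 bases of the 2 member windows that passed the test, on the plus strand at chr13:44737401-44737600 (*Jarid2*) and chr6:47582401-47582600 (*Ezh2*), shown because neither stretch holds a single CpG.
Jarid2: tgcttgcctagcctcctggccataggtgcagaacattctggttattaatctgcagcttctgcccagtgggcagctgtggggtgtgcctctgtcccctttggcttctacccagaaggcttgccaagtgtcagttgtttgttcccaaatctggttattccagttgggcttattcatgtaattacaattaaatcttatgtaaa
Ezh2: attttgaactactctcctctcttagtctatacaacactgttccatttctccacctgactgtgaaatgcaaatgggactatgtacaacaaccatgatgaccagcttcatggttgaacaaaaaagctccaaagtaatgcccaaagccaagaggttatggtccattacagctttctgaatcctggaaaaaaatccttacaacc

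The H3K4me3 values are enrichment-normalized RPKM on a linear scale, set by the authors so that the 40th percentile (1.23) and the 99th percentile (6.77) are equal in every library. Only these points of the range were matched, and low values still differed in what they stand for between libraries. The 90th percentile of the WT mean over all windows was 4.31 normalized RPKM and the median 1.46. Between 10856015 and 32775874 reads fell in the windows of each H3K4me3 library. Of the 93 member windows, 92 held at least 1 read in every library, and the window with the TSS of each gene held at least 35 reads in each library. Calls over the whole table rested on few libraries: 5539 windows passed, and 0 passed when WT replicate 2, WT replicate 4 or cKO replicate 4 was left out. Without WT replicate 1 the count was 1, without cKO replicate 3 it was 1761, and without cKO replicate 1 it was 17979.

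At the TSS windows of the 8 oocyte markers, the WT means were between 4.69 and 7.79 normalized RPKM, all above the 90th percentile, and their summed level was 43.4 to 44.8 in cKO and 47.6 to 53.7 in WT (6 lower and 2 higher in cKO, 0 past the test, 6 with an unadjusted p under 0.05). Without *Gdf9*, whose promoter also drives the Cre transgene and whose window was higher in cKO in H3K4me3 (10.7 ± 1.65 against 7.46 ± 0.427, adjusted p = 0.0598) and in input (3.42 and 3.00 against 2.17 and 1.85), the sums were 32.2 to 34.6 normalized RPKM in cKO and 40.5 to 46.4 in WT. Over all TSS windows, 49.3% were higher in cKO, 1.53% passed and 19.7% had an unadjusted p under 0.05. Of the 7 markers of granulosa cells, which surround the oocyte, *Fshr* and *Cyp19a1* lay between 0.457 and 2.77 normalized RPKM in all libraries, while *Foxl2*, *Amh*, *Inha*, *Inhba* and *Kitl* had WT means between 3.43 and 5.90, and none was at 0. The summed level of the granulosa list was 31.97 to 35.3 normalized RPKM in cKO and 25.5 to 25.8 in WT, with all 7 genes above 0 in difference and 1, *Foxl2*, past the test (limma adjusted p = 0.0415). The *Foxl2* window also holds the start of *Foxl2os*. Over the omissions of 1 library the limma adjusted p of this window was 0.0281 to 0.149, and by edgeR it was 0.744. The part of either list in the results was not tested. At the targeted gene, *Setd1b*, the window with the TSS fell from 7.11 ± 0.861 (SD, n = 3) in WT to 4.36 ± 0.385 (n = 3) normalized RPKM in cKO (limma adjusted p = 0.0332), which does not read the deletion itself. This window also holds the start of *AI480526*, to which the table assigns it. Its adjusted p was 0.0321 to 0.128 over the omissions of 1 library and 0.446 by edgeR.

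H3K4me3 was high at most windows that hold the TSS of these genes. In WT, 8 of the 10 TSS windows exceeded the 90th percentile of all windows, against 24.0% of the 48576 TSS windows of the genome. Those 48576 cover GENCODE genes of every type, noncoding ones included. Of the 33 further Polycomb genes described below, 20 exceeded it as well. The WT means ran, from the highest, *Cbx2* 7.45, *Ezh1* 7.30, *Pcgf1* 7.16, *Suz12* 6.87, *Bmi1* 6.84, *Jarid2* 5.91, *Rnf2* 5.47, *Ezh2* 4.92, *Eed* 4.04 and *Ring1* 3.39 normalized RPKM. Neighbours in this order overlapped in the range of their 3 libraries in every case. The median over all TSS windows was 2.41 normalized RPKM. In cKO the order ran from *Pcgf1* (7.40) to *Ring1* (3.56), with *Eed* in the fifth place and *Jarid2* in the ninth, and neighbours again overlapped in range.

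**Figure D1:**
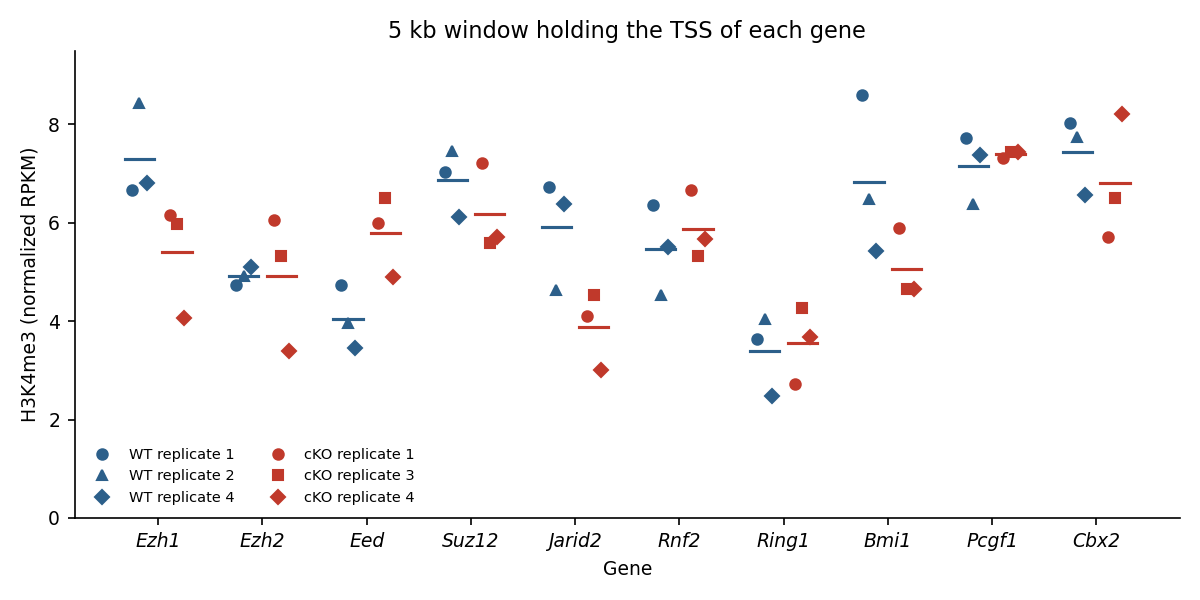
H3K4me3 (normalized RPKM, vertical axis) in the 5 kb window holding the TSS of each of the 10 genes, with 1 point per library and horizontal lines at the mean of 3 libraries. The 3 cKO libraries lie below the 3 WT libraries for *Ezh1* and *Jarid2* and above them for *Eed*, and the genotypes overlap for the other genes.

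None of the 10 TSS windows passed the test across all windows (limma, adjusted p under 0.05), against 1.53% of all TSS windows (0.896% higher and 0.638% lower in cKO), and 4 had an unadjusted p under 0.05 (19.7% of all TSS windows). The median difference over the 10, cKO minus WT, was -0.312 normalized RPKM, beside -0.0132 over all TSS windows. The difference was above 0 in 5 genes and below 0 in 5, beside 49.3% above 0 over all TSS windows. By edgeR on the reads it was above 0 in 1 of the 10, beside 22711 of the 46124 TSS windows tested. The methods differed, so no common direction can be given. Every cKO library was above every WT library in 1 gene (12.7% of all TSS windows) and below in 2 genes (9.38%).

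*Ezh1*, the PRC2 enzyme that prevails in cells that do not divide, had 6.16, 5.98 and 4.07 normalized RPKM in cKO (replicates 1, 3 and 4, an order kept throughout) and 6.67, 8.43 and 6.80 in WT (replicates 1, 2 and 4) at its TSS window (chr11:101225001-101230000). The cKO libraries were all lower than the WT libraries, and the difference of -1.89 ± 0.633 (SE) normalized RPKM did not pass (adjusted p = 0.188). *Ezh2*, the more active enzyme, had 6.05, 5.32 and 3.40 normalized RPKM in cKO and 4.73, 4.93 and 5.10 in WT at its TSS window (chr6:47595001-47600000). The cKO libraries fell on both sides of the WT libraries, which lay close together, and the difference was 0.0062 ± 0.592 normalized RPKM (adjusted p = 0.997).

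For *Eed* the levels at the TSS window (chr7:89980001-89985000) were 5.998, 6.51 and 4.89 normalized RPKM in cKO and 4.73, 3.95 and 3.45 in WT. All cKO libraries lay above all WT libraries here, with a difference of 1.76 ± 0.494 normalized RPKM (adjusted p = 0.123). The same window holds the start of the noncoding gene *E230029C05Rik*, so the mark cannot be given to either gene. *Suz12* had 7.22, 5.59 and 5.71 normalized RPKM in cKO and 7.04, 7.46 and 6.11 in WT (chr11:79990001-79995000), a difference of -0.696 ± 0.519 normalized RPKM with overlapping groups (adjusted p = 0.494).

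*Jarid2* had 4.11, 4.53 and 3.01 normalized RPKM in cKO and 6.72, 4.63 and 6.38 in WT at the window of its annotated start (chr13:44725001-44730000). WT replicate 2 came close to the cKO libraries, which were lower in all cases, and the difference was -2.03 ± 0.587 normalized RPKM (adjusted p = 0.133).

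Among PRC1 genes the TSS windows overlapped between genotypes in all 5. *Rnf2*, which encodes the main ubiquitin ligase, had 6.66, 5.32 and 5.67 normalized RPKM in cKO and 6.36, 4.54 and 5.52 in WT (difference 0.414 ± 0.521 normalized RPKM, adjusted p = 0.697). *Ring1*, its paralogue, had the lowest level of the 10 genes, with 2.73, 4.27 and 3.69 normalized RPKM in cKO and 3.64, 4.05 and 2.49 in WT (difference 0.169 ± 0.514, adjusted p = 0.887). *Pcgf1*, a subunit of variant PRC1, had 7.33, 7.43 and 7.45 normalized RPKM in cKO and 7.72, 6.39 and 7.37 in WT (difference 0.246 ± 0.403, adjusted p = 0.774). Its 3 cKO libraries differed by less than those of any other gene, and the window also holds the start of *Gm37092*. *Cbx2* had 5.72, 6.51 and 8.22 normalized RPKM in cKO and 8.03, 7.75 and 6.56 in WT (difference -0.630 ± 0.627, adjusted p = 0.612).

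*Bmi1* differs in its assignment. The window with its TSS (chr2:18675001-18680000, 278 CpGs) is named *Commd3*, the gene just upstream, in the deposited table and is therefore not among the 93. It held 5.89, 4.66 and 4.65 normalized RPKM in cKO and 8.61, 6.48 and 5.43 in WT (difference -1.77 ± 0.714, adjusted p = 0.276), with cKO replicate 1 inside the WT range. Within the rule, the 2 windows of *Bmi1* had means of 2.81 and 5.10 normalized RPKM in cKO and 2.34 and 4.37 in WT. Of these, the larger difference was 0.726 ± 0.786 normalized RPKM (chr2:18685001-18690000, adjusted p = 0.644). A further 3 windows over the bodies of *Ezh1* (1) and *Rnf2* (2) carry another name or none in the table, and none of them passed.

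Over all 93 windows, 2 passed the test and both were lower in cKO, where 1.02% of all windows passed (0.563% higher and 0.454% lower in cKO). Of windows with a gene name, 1.26% passed, and 0.365% as lower in cKO. Before adjustment, p was under 0.05 for 11 of them and for 14.9% of all windows. Every cKO library lay above every WT library in 6 windows (9.88% of all windows) and below in 6 (9.95%). The difference was above 0 in 60 of the 93 windows, beside 59.2% of windows with a gene name and 43.7% of all windows. The median difference was 0.222 normalized RPKM, against 0.133 over windows with a gene name and -0.103 over all windows. It was 0.0397 normalized RPKM without cKO replicate 3, and 0.103 over the 53 windows outside *Jarid2*.

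**Figure D2:**
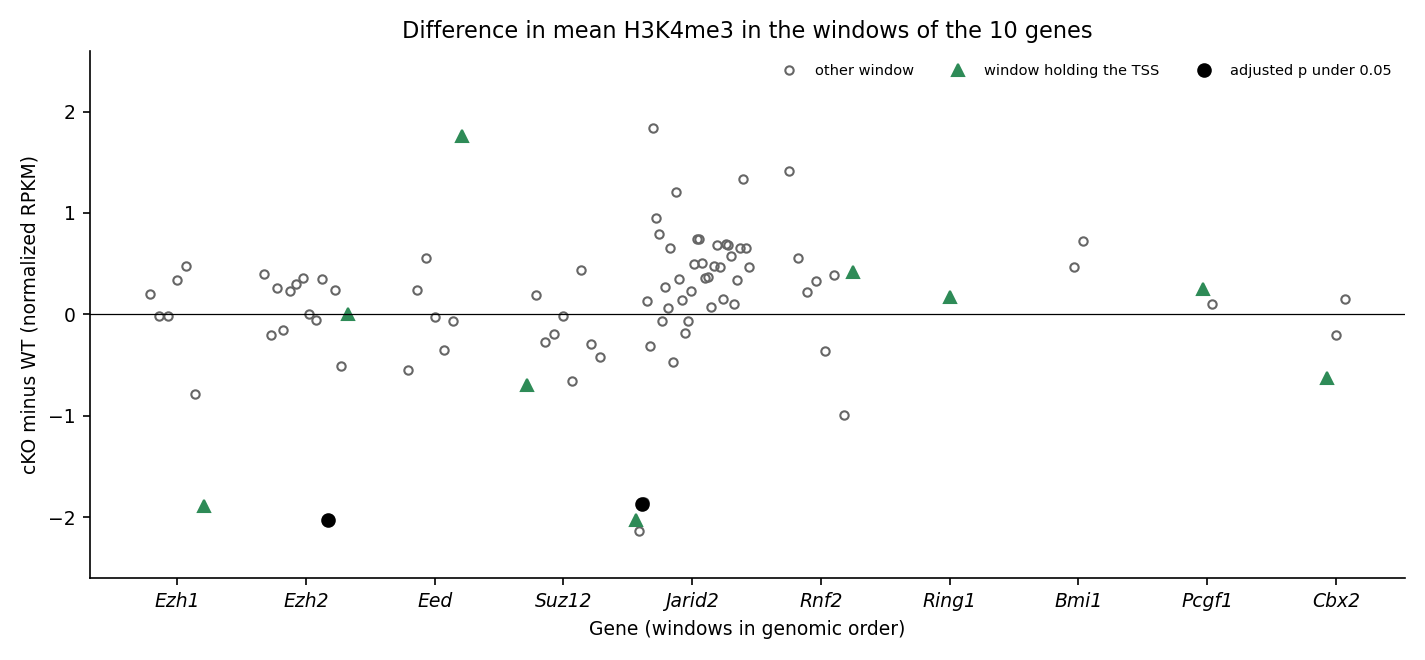
Difference in mean H3K4me3, cKO minus WT (normalized RPKM, vertical axis), for the 93 member windows, ordered along the genome within each gene. Filled circles mark the 2 windows past the test, at -2.03 (*Ezh2*) and -1.87 (*Jarid2*), triangles the TSS windows within the rule, and the *Jarid2* window at -1.85 lies beneath the filled circle.

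The window of *Ezh2* that passed lies in an intron, 12.8 kb downstream of the TSS (chr6:47580001-47585000), and overlaps no exon of any *Ezh2* transcript. It had 4.33, 4.00 and 4.75 normalized RPKM in cKO and 6.04, 6.97 and 6.17 in WT. All cKO libraries were lower, and the mean fell from 6.40 ± 0.501 (SD, n = 3) to 4.36 ± 0.374 (n = 3), a difference of -2.03 ± 0.389 (SE) normalized RPKM (limma adjusted p = 0.0446). In WT this intronic window stood higher than the TSS window of the same gene, at the 98.7th percentile of all windows. The levels rested on 64, 38 and 113 reads in cKO and 100, 72 and 196 reads in WT, and the input (reads per window scaled to library size) was 2.27 and 1.87 in cKO and 2.17 and 1.16 in WT. The windows on each side had differences of 0.240 and 0.351 normalized RPKM. Leaving out any library other than cKO replicate 1 ended the call, with adjusted p between 0.0426 and 0.153 over the 6 omissions, and edgeR on the reads gave a log2 fold change of -0.78 (adjusted p = 0.551). The log2 scales, an intensity trend and quantile normalization ended the call too (adjusted p between 0.0787 and 0.453).

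**Figure D3:**
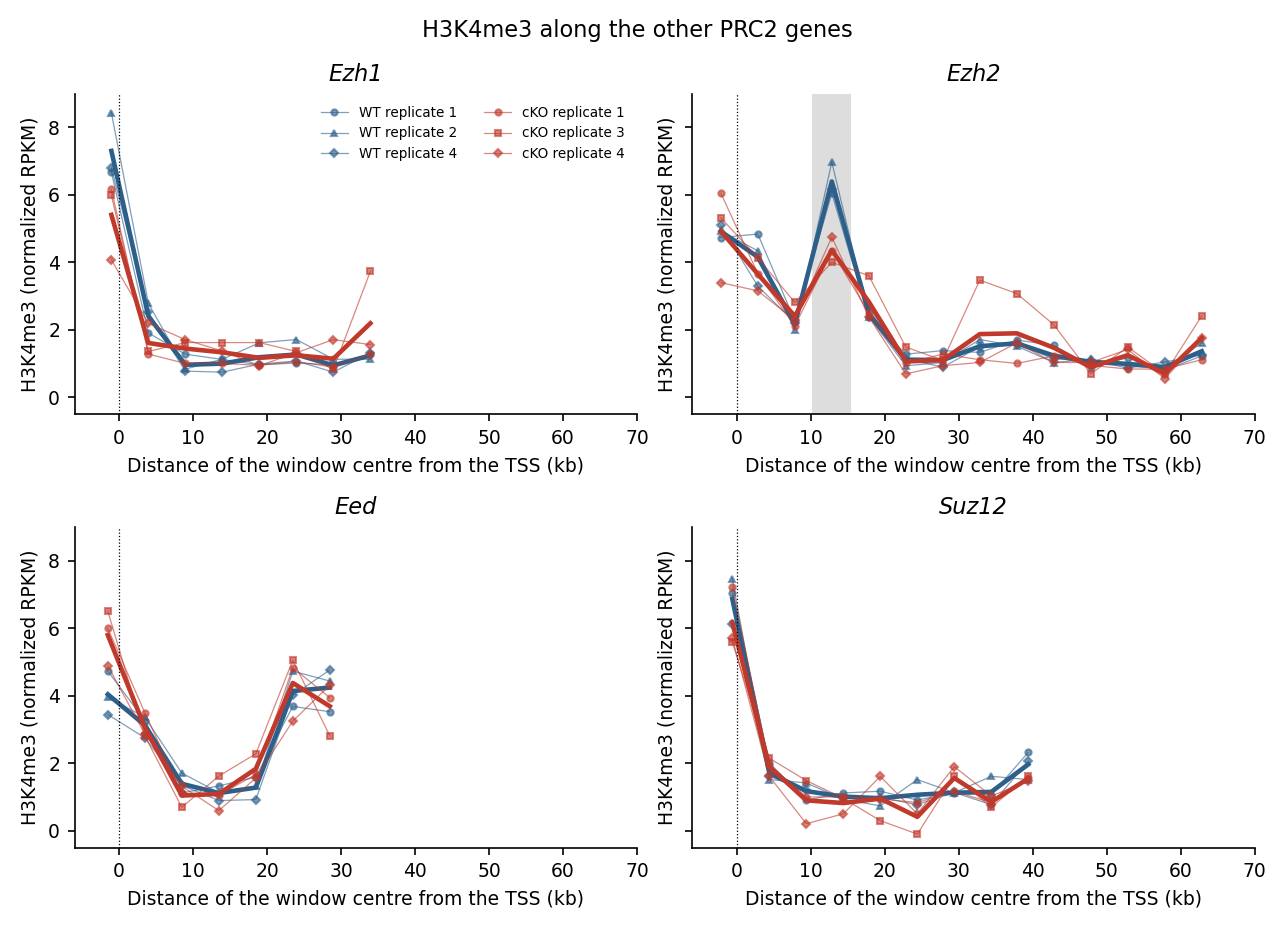
H3K4me3 (normalized RPKM, vertical axis) in the 5 kb windows along *Ezh1*, *Ezh2*, *Eed* and *Suz12* by distance of the window centre from the TSS (kb); thin lines are libraries, thick lines means of 3 (blue WT, red cKO), and the grey band is the *Ezh2* window that passed the test. The last window of *Ezh1* is named for another gene in the table, and away from the TSS, the *Ezh2* intron window and the end of *Eed*, most values lie under 3 normalized RPKM.

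Away from these windows the PRC2 genes were mostly low in H3K4me3. The 7 windows of *Ezh1* and 9 of *Suz12* each held 1 window above the 90th percentile in WT, that of the TSS. In *Eed* none exceeded it in WT and 2 did in cKO, the TSS window and a window at the end of the gene (chr7:89955001-89960000) with 4.83, 5.06 and 3.25 normalized RPKM in cKO and 3.69, 4.73 and 4.02 in WT.

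At the start of *Jarid2*, 4 adjoining windows had lower means in cKO, and 1 of them passed. The annotated start lies near the edge of its window, and the RefSeq promoter shown above falls in the next (chr13:44730001-44735000), which has 280 CpGs, the most of all 93. That window held 4.06, 6.38 and 2.48 normalized RPKM in cKO and 7.66, 5.31 and 6.35 in WT. It had the largest difference of the 93, -2.14 ± 0.885 normalized RPKM, but cKO replicate 3 lay within the WT range and the test was not passed (adjusted p = 0.290).

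The next window, within the following intron (chr13:44735001-44740000, centre 8.03 kb from the TSS), passed. Its levels were 2.28, 2.81 and 2.77 normalized RPKM in cKO and 4.58, 4.15 and 4.77 in WT, so that the groups were well apart. The mean fell from 4.50 ± 0.317 (SD, n = 3) to 2.62 ± 0.295 (n = 3), a difference of -1.87 ± 0.352 normalized RPKM (limma adjusted p = 0.0430). The reads were 27, 29 and 72 in cKO and 72, 43 and 149 in WT, and the input lay between 1.94 and 2.35 in the 4 input libraries. Over the 6 omissions of a library the adjusted p was between 0.0426 and 0.184, and only the omission of cKO replicate 1 kept it under 0.05. By edgeR the log2 fold change was -1.07 (adjusted p = 0.172), and the log2 scales, the trend and quantile normalization also ended the call (adjusted p between 0.0587 and 0.437).

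The fourth window (chr13:44740001-44745000) had 4.61, 4.13 and 5.47 normalized RPKM in cKO and 7.14, 6.39 and 6.23 in WT, a difference of -1.85 ± 0.437 (adjusted p = 0.0781) with no overlap. Averaged over the 4 windows, the level was 3.77, 4.46 and 3.43 normalized RPKM in cKO and 6.53, 5.12 and 5.93 in WT. This run was picked after its values were seen, so the average is given without a test.

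Further along, the direction of the values turned. Window chr13:44755001-44760000, 28.0 kb from the TSS, had 5.06, 5.19 and 6.24 normalized RPKM in cKO and 3.43, 3.17 and 4.38 in WT, all cKO libraries above all WT libraries (difference 1.84 ± 0.456, adjusted p = 0.0881). Of the 40 *Jarid2* windows, 5 exceeded the WT 90th percentile in WT and 3 in cKO. In WT these were the first 4 windows and that centred 23.0 kb from the TSS, and in cKO those centred at 13.0, 23.0 and 28.0 kb.

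**Figure D4:**
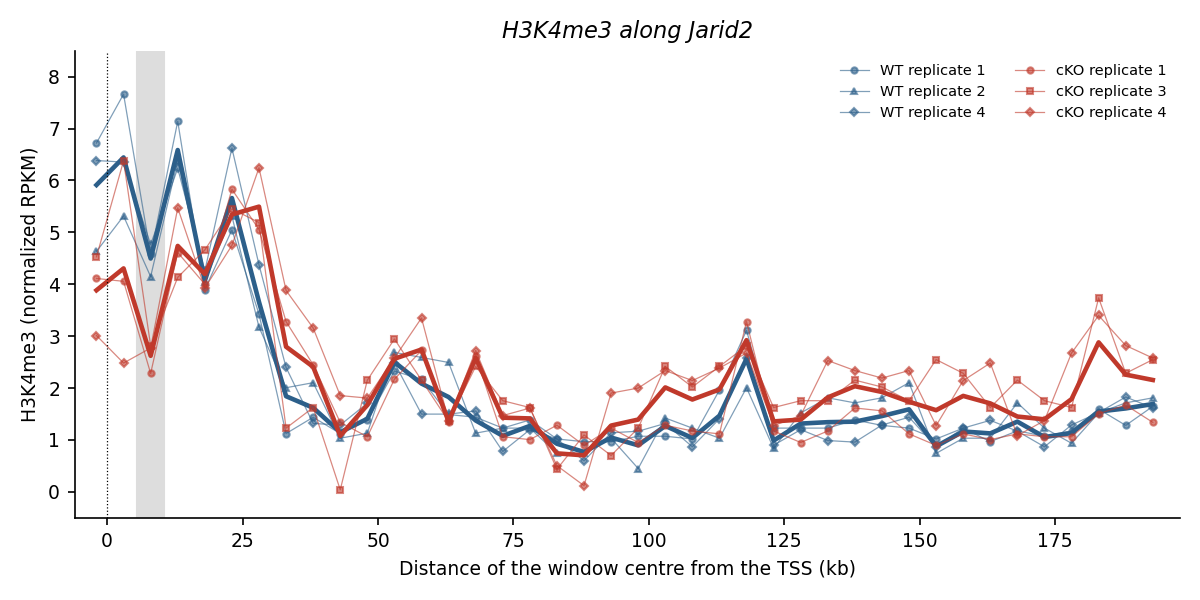
H3K4me3 (normalized RPKM, vertical axis) in the 40 windows of *Jarid2* by distance of the window centre from the TSS (kb); thin lines are libraries, thick lines means of 3 (blue WT, red cKO), and the grey band is the window that passed the test (4.50 in WT, 2.62 in cKO). The means of cKO lie below those of WT in the first 4 windows and above in 27 of the last 30.

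In the last 30 windows of *Jarid2*, from 48.0 kb on (an interval set after the values were seen), the difference was above 0 in 27, beside 59.2% of windows with a gene name. None passed the test in limma, and 2 had an unadjusted p under 0.05, beside 14.9% of all windows. The median level was low, 1.76 normalized RPKM in cKO and 1.33 in WT. The libraries of cKO were not alike here. Replicates 3 and 4 exceeded every WT library in 23 windows each and replicate 1 in 5. Their medians were 2.02, 2.17 and 1.17 normalized RPKM in the same order, against 1.23, 1.23 and 1.26 in WT replicates 1, 2 and 4. The value that stands for 0 reads lay below 0 for cKO replicate 3 (-1.02) and cKO replicate 4 (-0.700), at 0.785 normalized RPKM for cKO replicate 1 and between -0.0359 and 0.810 in WT. Its part in these low levels was not tested. Without cKO replicate 1, a further *Jarid2* window passed (chr13:44910001-44915000, difference 2.02 normalized RPKM, adjusted p = 0.0276), where 3.3% of all windows passed, and with it the adjusted p was 0.277.

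In *Rnf2* the largest difference was near the end of the gene, 33.5 kb from the TSS (chr1:151465001-151470000), where the levels were 3.89, 4.13 and 4.80 normalized RPKM in cKO and 2.38, 3.17 and 3.03 in WT. The cKO libraries were all higher, with a difference of 1.41 ± 0.390 normalized RPKM that did not pass (adjusted p = 0.117).

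The TSS windows were richer in CpGs than most windows of these genes. The TSS windows of the 10 genes held 68 to 278 CpGs (median 166, against 51 over all TSS windows), and the 93 windows had a median of 41. The intron windows that passed had 20 CpGs (*Ezh2*) and 32 (*Jarid2*), while the median window of the genome had 35. Across the 93 windows, which share libraries and in part neighbours, Spearman's rho of CpG count was 0.295 with the WT level and 0.0263 with the difference. Over 529282 windows with known sequence these were 0.223 and 0.304.

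**Figure D5:**
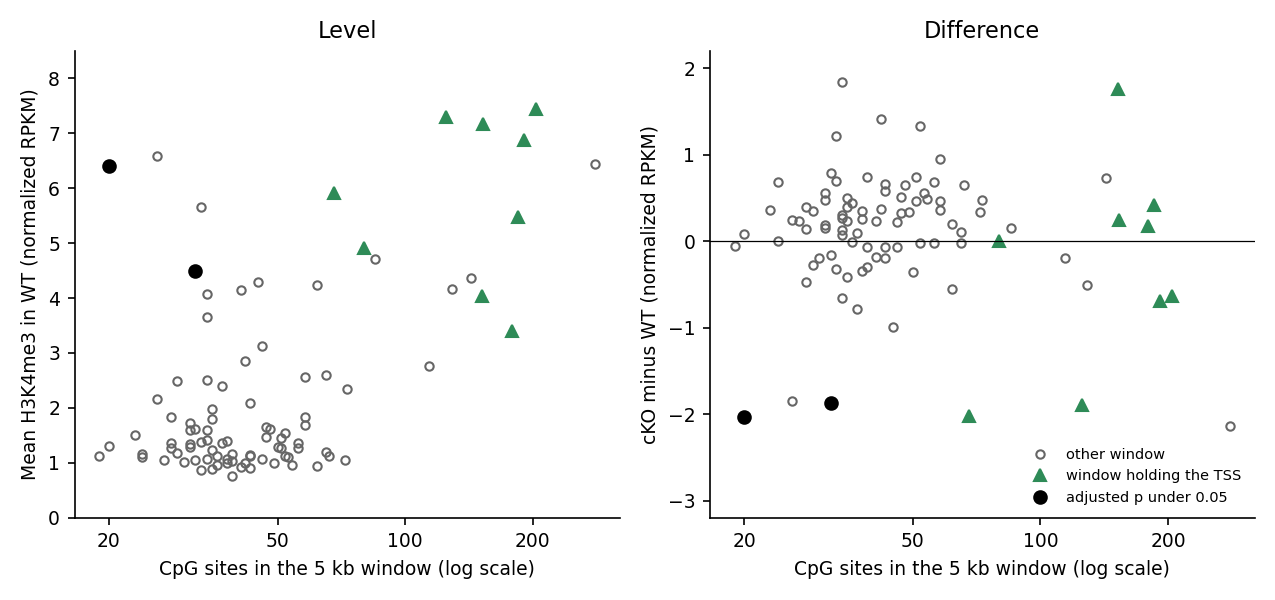
CpG sites per 5 kb window (log scale, horizontal axis) against the WT mean of H3K4me3 (left) and the difference cKO minus WT (right), both in normalized RPKM, for the 93 member windows. The windows past the test, with 20 and 32 CpGs, have WT means of 6.40 and 4.50, and windows with the lowest differences are found at 20 to 280 CpGs.

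As means over all windows of a gene, the 10 genes showed no difference past the test. A mean was tested for 24678 genes, of which 1.92% passed (1.39% higher and 0.523% lower in cKO), and 0 of the 10 passed in limma, also at an unadjusted p under 0.05 (22.4% of all genes), and edgeR called 0 as well. The groups of all 10 genes overlapped, where 30.3% of genes did not. The gene mean of *Jarid2* was 1.96, 2.38 and 2.46 normalized RPKM in cKO and 2.09, 2.02 and 2.08 in WT, a difference of 0.205 ± 0.202 (adjusted p = 0.543) that joins lower windows at the start to higher ones further on. *Ezh2* had 2.01, 2.61 and 1.86 normalized RPKM in cKO and 2.26, 2.24 and 2.14 in WT (-0.0577 ± 0.240, adjusted p = 0.896). The differences of gene means lay between -0.245 (*Ezh1*) and 0.598 (*Bmi1*) normalized RPKM. The mean of *Bmi1* leaves out its TSS window, which is named *Commd3* and was lower in cKO (-1.77 normalized RPKM). Differences were above 0 in 6 of the gene means, beside 59% of all genes. After quantile normalization this held for 3 (12604 of all 24678 genes) and by edgeR for 1 (12154 of 23976 genes), so no common direction can be given.

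Other Polycomb genes were read at their TSS windows from a list of 33: 7 further PRC2 genes, 22 of PRC1 and 4 of the PR-DUB, the complex that removes the ubiquitin placed by PRC1. Only 1 of the 33 passed and was higher in cKO, against 1.53% of all TSS windows. It was *Phf19*, a PRC2 accessory subunit that binds methylated H3K36. Its TSS window (chr2:34910001-34915000, 156 CpGs) had 5.11, 4.00 and 4.41 normalized RPKM in cKO and 2.07, 1.72 and 1.53 in WT. All cKO libraries were above all WT libraries, and the mean rose from 1.77 ± 0.273 (SD, n = 3) to 4.51 ± 0.561 (n = 3), a difference of 2.74 ± 0.388 normalized RPKM (limma adjusted p = 0.0220). By edgeR the window rose by a log2 fold change of 1.45 (adjusted p = 0.0134), and over the 6 omissions the limma adjusted p was between 0.0222 and 0.102. Either log2 scale and quantile normalization ended the call, as they did for every TSS window of the genome. The window also holds the start of *Gm13448*.

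The next largest difference was that of *Usp7* of PRC1. *Usp7*, a deubiquitinase of a variant PRC1, had 6.77, 5.32 and 5.95 normalized RPKM in cKO and 8.40, 10.7 and 6.89 in WT (difference -2.64 ± 0.801, adjusted p = 0.150). The genotypes did not overlap there. By complex, the median difference was 0.276 normalized RPKM in PRC2, 0.432 in PRC1 and 0.0439 in the PR-DUB, against -0.0132 over all TSS windows, and 1, 0 and 0 genes passed. Every cKO library lay above every WT library in 8 of the 33 (12.7% of all TSS windows) and below in 3 (9.38%). Of the 33 genes, 21 had a difference above 0, beside 49.3% of all TSS windows. By edgeR on the reads 11 did, beside 22711 of the 46124 TSS windows tested, so no common direction can be given.

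As gene means, 31 of the 33 had windows of their name and 2 passed, *Phf19* and *Pcgf2*, where 1.92% of all genes did. *Pcgf2*, the BMI1 paralogue of canonical PRC1, was not chosen by the rule for named genes but is given because its mean passed. It had 5.72, 6.29 and 6.23 normalized RPKM in cKO and 4.07, 4.57 and 4.86 in WT over 3 windows (difference 1.58 ± 0.276, limma adjusted p = 0.0457), with adjusted p between 0.0321 and 0.162 over the omissions of a library. Its TSS window, which also holds the start of *Psmb3*, did not pass (difference 1.17 ± 0.506, limma adjusted p = 0.314). By edgeR the log2 fold change of that window was 0.0704 (adjusted p = 0.973). *Phf19* had gene means of 3.17, 3.57 and 3.46 normalized RPKM in cKO and 1.32, 1.06 and 0.974 in WT over 4 windows (difference 2.28 ± 0.204, limma adjusted p = 0.0217), with adjusted p between 0.0283 and 0.132 over the omissions.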

How the data were processed

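H3K4me3 was measured in 3 cKO and 3 WT libraries of GV oocytes, with 2 input libraries per genotype. The authors trimmed reads with Trim Galore 0.4.2, mapped them with Bowtie2 2.2.9 to GRCm38, removed low-quality mappings and windows with high input, and quantified 5 kb windows. The deposited H3K4me3 score is their enrichment-normalized RPKM (linear), and the deposited input signal is reads per window scaled to library size. Values equalled whole reads within 0.05 steps in 100% of cases, which gave the reads. Such reads can include duplicates. The windows held 10856015 to 32775874 reads per H3K4me3 library.

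Windows, and means over all windows of a gene, were compared in R 4.3.3 by limma 3.58.1 on the linear scale, with neither trend nor block, two-sided, with Benjamini-Hochberg adjustment over the whole table and a threshold of 0.05. TSS and exons came from GENCODE M21, and CpG counts from the GRCm38 sequence. Alternatives were log2 scales (pseudocounts 1 and 0.1, negative values taken as 0), quantile normalization, an intensity trend, a mean of at least 1, a replicate block, leaving out each library, and edgeR 4.0.16 (TMM, quasi-likelihood test, at least 10 reads). The edgeR fit used the reads alone, without the authors' enrichment normalization. For gene means the highest window was also tried, and for the wider list TSS ± 500 bp and leaving out shared TSS windows.

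For each of the 10 genes the text names the TSS window, each window past the threshold and the window with the largest difference. From the wider list it names each gene whose TSS window passed and the 3 with the largest differences there, of which 1 is not reported here. The members and lists were chosen with earlier results of these data known. The labels do not say from how many females each pool came, so p-values measure the spread between these libraries, part of which may be technical. DNA methylation and RNA data were not used here.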

Additional observations from a re-analysis of the deposited data

How the results depend on the processing

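Of the 93 windows of the 10 genes, 2 passed, and 2 passed with a mean of at least 1. With log2(value + 1), log2(value + 0.1), an intensity trend, quantile normalization or edgeR, 0 passed, and leaving out 1 library gave 0 to 3. At an unadjusted p under 0.05 these counts were 10, 5, 14, 9 and 7, where 13.4%, 10.6%, 17.5%, 16.7% and 13.2% of all windows had one. Over the same settings, all windows gave 5539 calls with limma as used here, 0, 0, 19492, 1 and 11514. This was 1.02% of all windows with limma as used here and 3.58% with the intensity trend. The share with the trend is the closer one to the share of the genome that the study reported as gaining or losing H3K4me3. For the wider list, 1 TSS window passed, with 0 under either log2 scale, 0 after quantile normalization, 2 with an intensity trend, 0 without shared TSS windows and 0 to 2 over the omissions of a library. Of all TSS windows, 0 passed under either log2 scale or quantile normalization and 3.78% with the trend. Gene means of the 10 gave 0 calls in all settings, but over all genes too 0 passed with log2(value + 0.1), with the block and without cKO replicate 4 or any 1 WT replicate, and 6 passed by edgeR, so this is no sign of stability.

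With the replicate number as a block, where 33433 of all windows passed, 10 member windows (6 lower and 4 higher in cKO) and 4 TSS windows of the wider list passed, the latter against 1 without it. Of all TSS windows 9.2% passed there. At the TSS, *Ezh1* (-1.62 normalized RPKM, adjusted p = 0.0171), *Jarid2* (-2.99, adjusted p = 1.86e-07) and *Bmi1* (-1.75, adjusted p = 0.00819) passed under the block in limma. Away from the TSS windows, *Jarid2* chr13:44730001-44735000 (-3.74, adjusted p = 1.25e-11), chr13:44740001-44745000 (-1.65, adjusted p = 0.0147), chr13:44755001-44760000 (1.75, adjusted p = 0.00806), chr13:44760001-44765000 (1.82, adjusted p = 0.00519) and chr13:44765001-44770000 (1.42, adjusted p = 0.0462) and the *Rnf2* window 33.5 kb from its TSS (1.64, adjusted p = 0.0151) passed as well. Replicates 1 and 4 alone occur in both genotypes, so differences under the block come from these 2 pairs only, with 1 residual degree of freedom. WT replicate 2 and cKO replicate 3 do not enter them, though cKO replicate 3 lay within the WT range at chr13:44730001-44735000. Nothing in the labels says that a number marks a shared litter or day. The correlation of deviations was 0.319 for replicate 1 and 0.0190 for replicate 4, and -0.227 to 0.133 for libraries with different numbers. With 2 shared numbers and no such label, the numbers were taken as names only.

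Several differences near 0 changed sign. At the TSS window of *Ezh2* they were -0.0262 and -0.0376 on the log2 scales, -0.0161 after quantile normalization, -0.189 with the block and -0.10 by edgeR, with -0.558 to 0.769 over the omissions. By edgeR the log2 fold change was -0.10 for *Rnf2*, -0.20 for *Ring1* and -0.23 for *Pcgf1* at the TSS, and for gene means -0.0379 for *Eed*, -0.0059 for *Jarid2*, -0.0107 for *Rnf2*, -0.23 for *Ring1* and -0.28 for *Pcgf1*. Quantile normalization turned the gene means of *Eed* (-0.0026), *Ring1* (-0.105) and *Pcgf1* (-0.110). The block turned *Pcgf1* at the TSS (-0.156) and as a gene mean (-0.279), and taking the highest window turned *Jarid2* (-0.740) and *Rnf2* (-0.0073). Over the omissions, the TSS windows lay between -0.0520 and 0.857 for *Rnf2*, -0.283 and 0.586 for *Ring1*, and -0.141 and 0.525 for *Pcgf1*, and the larger *Bmi1* window between -0.0841 and 1.65. The gene means lay between -0.282 and 0.0899 for *Ezh2*, -0.283 and 0.586 for *Ring1*, -0.0600 and 0.313 for *Pcgf1* and -0.575 and 0.144 for *Cbx2*. The cause of these changes was not tested. The *Jarid2* window that passed held as few as 27 reads in a library, and the part of depth was not tested.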
